A study of Homo sapiens with 12 samples.

Results

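Integrins are the cell-surface receptors that hold a cell to its surrounding matrix, and focal adhesions are the plaques of signalling and linker proteins that form behind them. The 39 genes described here were taken by name from the 62754 gene rows of 1 count table: 13 integrin alpha subunits, 8 integrin beta subunits and 18 plaque genes. RNA was measured in PC9 cells of a subclonal line. PC9 is a lung cancer cell line driven by mutant EGFR, and erlotinib inhibits the EGFR kinase. The 4 groups had 3 libraries each and were TDP1 wild-type cells left untreated (untreated WT), TDP1 wild-type cells kept in 1 µM erlotinib over 7 days (DTC, for drug-tolerant cells), TDP1 wild-type cells kept in the same 1 µM dose over 28 days (DTEC, for drug-tolerant expanded cells), and the TDP1 knockout line KO2 without drug (KO). TDP1 is the enzyme that removes trapped topoisomerase 1 from DNA. KO2 was the 1 knockout line measured, so genotype and line cannot be told apart, and no erlotinib-treated knockout cells were compared here. The 3 cultures of a condition were split from 1 flask and then grown apart, so p-values measure only the spread between such cultures.

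An integrin is a pair of 1 alpha and 1 beta subunit, and the pair decides which matrix protein is bound. In epithelial cells, the laminin receptors alpha3 beta1 and alpha6 beta4 hold the cell to its basement membrane, and alpha6 beta4 is the receptor of hemidesmosomes, which anchor keratin filaments. Receptors that contain alphaV bind fibronectin and vitronectin, and alphaV paired with beta6 or beta8 releases active TGF-beta from its latent complex. Inside the cell, talins and kindlins bind the beta tail and activate the receptor, the kinases FAK and Src signal from it, and vinculin, filamin, tensins and the ILK-PINCH-parvin complex connect it to actin.

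The libraries held 25572691 to 38373679 estimated counts, all in 1 batch per the labels, so a value within batches would be the pooled one. Values are given as CPM, which are counts made comparable between libraries by dividing by TMM-scaled totals. TDP1 itself averaged 26.3 ± 1.60 CPM (SD, n = 3) in the wild type without drug and 10.8 ± 0.65 CPM in KO, so its RNA was lower but present in the knockout line. The 9 epithelial markers summed to between 10795 and 11397 CPM in untreated WT, between 6294 and 7279 in DTC, between 9293 and 12163 in DTEC and between 11485 and 12321 in KO, and 1 of them, the lineage factor NKX2-1, was at the counting floor (at most 3 counts in each library of the group) in all groups but DTC. Of the 6 fibroblast markers, COL1A2, COL3A1 and DCN were at the floor in every group, and the summed level was 7.79 to 8.83, 54.9 to 57.5, 10.9 to 14.1 and 13.2 to 14.8 CPM in the same order, nearly all of it COL1A1. Of the 7 leukocyte markers, CD2, CD3E and MS4A1 were at the floor in every group, and the list summed to 49.5 to 56.2, 34.4 to 44.3, 22.1 to 34.2 and 35.0 to 36.9 CPM, most of it LAPTM5 (means of 52.2, 29.4, 25.9 and 34.9 CPM). Of its 3 tested markers, CSF1R and CD14 were called higher and LAPTM5 lower in DTC. The 4 endothelial markers summed to 58.5 to 61.4, 42.1 to 50.1, 122 to 142 and 75.8 to 77.2 CPM. Mitochondrial genes took 2.504 to 2.77% of counts in untreated WT, against 4.43 to 5.41%, 1.82 to 2.38% and 2.59 to 2.78% in DTC, DTEC and KO. The part of these shifts in the results below was not tested.

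One library touches many of the values below. DTC replicate 1 was the highest of the 3 DTC libraries for 25 of the 34 members tested (73.5%), against 41.8% of all genes tested, and DTC replicate 2 was the lowest for 25 of 34 (73.5%, against 34.2% of all genes). Calls of members that changed when 1 library was left out are given beside the gene or at the end of its comparison.

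After 7 days in erlotinib the laminin-receptor subunits ITGA6 and ITGA3 and the beta subunit ITGB5 fell, while ITGAV and the beta subunits ITGB3, ITGB6, ITGB8 and ITGB2 rose. In the plaque, the kindlin FERMT1, the tensin TNS4 and the parvin PARVB fell the most. Of the 39 members, 34 had enough counts to be tested, and 27 of these 34 passed the test between DTC and untreated WT (edgeR's quasi-likelihood test, Benjamini-Hochberg adjusted p under 0.05), 16 higher and 11 lower. The same test called 67.3% of all 17115 genes tested, 34% higher and 33.3% lower, so a large count of called members is also what the whole table shows. With a change of at least 2-fold, 8 members rose and 6 fell, 14 in all, against 22.3%, 13.9% and 36.2% of all genes. The median log2 fold change was 0.10 over the 34 members and 0.06 over all genes. ITGB7 passed the filter on low counts only through DTC and TNS1 through DTC, DTEC and KO but not untreated WT. Of the 32 members above the minimum in every group, 25 were called, 14 higher and 11 lower. At 2-fold, 6 of the 32 rose and 6 fell, and the median log2 fold change over the 32 was -0.11. The larger number of 2-fold rises and the positive median over the 34 members thus rest on ITGB7 and TNS1. In these bulk samples, fewer cells with a transcript and less of it per cell cannot be told apart.

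Among the 13 alpha subunits, 5 did not pass the filter: ITGA4, ITGA8, ITGA9, ITGA10 and ITGA11, with at most 13 counts in any library, and ITGA8 had 0 counts in all 12. Of the 8 that were tested, 3 rose and 3 fell in DTC, that is 75% against the 67.3% of all genes called. ITGA6 (chr2:172427354-172506282, plus strand, GRCh38), the alpha subunit of the laminin receptors alpha6 beta1 and alpha6 beta4, stood at 1336, 1186 and 1245 CPM in the 3 untreated WT libraries. It stood at 186, 95.8 and 106 CPM in DTC and at 686, 618 and 516 CPM in DTEC. All DTC libraries thus lay below all DTEC libraries, which in turn lay below all untreated WT libraries. The log2 fold change against untreated WT was -3.28 (SE 0.215, edgeR adjusted p = 1.57e-08) in DTC and -1.05 (SE 0.198, edgeR adjusted p = 0.000576) in DTEC, and DTEC lay 2.23 above DTC (SE 0.206, edgeR adjusted p = 1.02e-06).

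ITGA3, which pairs with beta1 as a laminin receptor, had 804, 956 and 923 CPM in untreated WT and 311, 247 and 269 CPM in DTC. In DTEC it had 794, 886 and 992 CPM, a range that overlapped untreated WT and lay wholly above DTC. The fall at 7 days was -1.70 on the log2 scale (SE 0.118, edgeR adjusted p = 1.7e-08), and DTEC was 1.69 above DTC (SE 0.118, edgeR adjusted p = 4.91e-08). DTEC and untreated WT were not called different for ITGA3, and their means were 891 ± 99.1 and 894 ± 80.2 CPM (SD, n = 3).

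ITGAV (chr2:186590065-186680901, plus strand, GRCh38), the alphaV subunit, moved the other way. It had 98.4, 91.3 and 107 CPM in untreated WT, 440, 301 and 350 CPM in DTC and 95.6, 90.3 and 68.5 CPM in DTEC. The DTC libraries stood above all others, and the DTEC and untreated WT libraries overlapped. The change was 1.88 (SE 0.151, edgeR adjusted p = 7.5e-08) from untreated WT to DTC and -2.10 (SE 0.152, edgeR adjusted p = 7.28e-08) from DTC to DTEC. Against untreated WT, DTEC differed by -0.22 (SE 0.147), which did not pass the test (edgeR adjusted p = 0.216).

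ITGA1, the alpha subunit of the collagen receptor alpha1 beta1, was low throughout but followed a similar course. It had 10.3, 11.4 and 11.8 CPM in untreated WT, 36.2, 21.2 and 25.8 CPM in DTC and 8.17, 7.19 and 6.17 CPM in DTEC, with no overlap between any of these groups. It rose by 1.31 at 7 days (SE 0.172, edgeR adjusted p = 1e-05) and stood 0.64 below untreated WT at 28 days (a log2 fold change of -0.64, SE 0.176, edgeR adjusted p = 0.00726). ITGA2, the alpha subunit of the other main collagen receptor, had 404, 184 and 219 CPM in DTC around the 278, 291 and 309 CPM of untreated WT and was not called, although without DTC replicate 1 it was (-0.504, edgeR adjusted p = 0.000306). The deposited values of ITGA1 were not whole numbers in any of the 12 libraries, so its reads may be shared with similar features. The same holds for ITGA7, ITGB1, ITGB8, VCL and LIMS1. Some values were also not whole for ITGA3, ITGAV, ITGB3, ITGB6, PTK2, TLN1, PARVA, PARVB, FERMT1, FERMT2, BCAR1 and TNS3. Reads of these members may be shared as well.

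ITGA5, which with beta1 forms the classical fibronectin receptor, had its lowest levels at 28 days. It had 164, 184 and 169 CPM in untreated WT, 145, 80.4 and 116 CPM in DTC and 82.9, 64.4 and 57.2 CPM in DTEC. The spread in DTC reached from near the untreated level down to the DTEC level. DTC did not overlap untreated WT and was called lower, a call lost with total counts alone and with upper-quartile scaling. DTEC lay wholly below untreated WT, by -1.34 on the log2 scale (SE 0.18, edgeR adjusted p = 3.03e-05). ITGAE, the alphaE subunit that pairs with beta7 and binds E-cadherin, had 23.5, 21.7 and 23.2 CPM in untreated WT and 13.9, 13.3 and 14 CPM in DTEC. That fall of -0.73 (SE 0.229, edgeR adjusted p = 0.0158) was no longer called when libraries were scaled by total counts alone (edgeR adjusted p = 0.0513). In DTC its libraries had 11.7, 29.1 and 20.4 CPM, and it was not called, but was lower and called without DTC replicate 2 (-0.45, edgeR adjusted p = 0.0428). ITGA7, a laminin-binding alpha subunit of muscle, was called higher in DTC than in untreated WT and than in DTEC. Its level was low, at 3.67 CPM or less in every library.

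The start regions of 4 members are shown because they carry opposite or late changes: ITGA6 and ITGAV moved in opposite directions at 7 days, ITGB6 is a beta partner of alphaV that rose with it, and ITGA5 was lowest at 28 days. Each run is the 270 bases from 250 before to 20 after a RefSeq transcription start on GRCh38.p14, written 5′ to 3′ on the gene's strand. ITGA6 is at chr2:172427336-172427605 on the plus strand (70.7% G and C), ITGAV at chr2:186589806-186590075 on the plus strand (70.4%), ITGB6 at chr2:160200253-160200522 on the minus strand (31.9%) and ITGA5 at chr12:54419247-54419516 on the minus strand (68.5%). Each window is placed on 1 RefSeq start, and ITGA6 and ITGAV each had a further RefSeq start whose window is not printed. By the gene coordinates used here, ITGA6 begins at chr2:172427354 and ITGA5 at chr12:54419460 on the minus strand. Most of the ITGA6 and ITGA5 windows thus lies inside the annotated gene, as do both motifs marked for ITGA5. For ITGAV and ITGB6 a smaller part of the window lies inside the gene. Capitals mark the letters of the TEAD motif GGAATG and of the AP-1 motif TGANTCA.
ITGA6: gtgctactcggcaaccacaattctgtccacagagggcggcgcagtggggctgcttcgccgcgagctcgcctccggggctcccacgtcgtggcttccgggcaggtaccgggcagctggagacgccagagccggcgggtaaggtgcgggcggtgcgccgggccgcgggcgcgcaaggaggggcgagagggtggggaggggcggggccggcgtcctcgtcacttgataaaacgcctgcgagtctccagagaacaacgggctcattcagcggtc
ITGAV: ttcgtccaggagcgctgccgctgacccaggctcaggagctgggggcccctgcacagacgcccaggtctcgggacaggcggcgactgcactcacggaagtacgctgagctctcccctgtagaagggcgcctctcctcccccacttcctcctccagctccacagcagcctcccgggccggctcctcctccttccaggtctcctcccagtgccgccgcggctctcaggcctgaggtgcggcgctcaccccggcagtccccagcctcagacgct
ITGB6: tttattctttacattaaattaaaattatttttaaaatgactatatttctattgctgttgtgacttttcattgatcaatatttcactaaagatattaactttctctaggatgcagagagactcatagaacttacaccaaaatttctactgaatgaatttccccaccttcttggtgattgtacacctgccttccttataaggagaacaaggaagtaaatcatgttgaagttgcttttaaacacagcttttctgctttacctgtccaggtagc
ITGA5: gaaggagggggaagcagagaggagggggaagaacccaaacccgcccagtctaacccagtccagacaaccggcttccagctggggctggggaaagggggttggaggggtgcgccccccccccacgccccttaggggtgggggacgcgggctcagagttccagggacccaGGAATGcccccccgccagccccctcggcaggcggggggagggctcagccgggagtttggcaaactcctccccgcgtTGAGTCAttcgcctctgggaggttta
ITGA5 was the 1 member whose window held both motifs, with GGAATG starting 82 bases and TGAGTCA starting 6 bases before the start site. Windows of 300 bases (250 before to 50 after the start) were on hand for 28 of the 39 members, 48 windows in all, and both strands were searched. GGAATG was in 7 of the 48 windows (14.6%), those of ITGA5, ITGA10, ITGB1, PXN, TNS1 and VCL, against 14.03% of all 35116 windows. TGANTCA was in 3 of 48 (6.25%), those of ITGA5, BCAR1 and LIMS1, against 7.71% of all windows. The shares were thus near those of all windows, and the 2 motifs did not overlap in any member window. The windows printed for ITGA6, ITGAV and ITGB6 held neither run of letters.

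All 8 beta subunits were tested, and in DTC 6 rose and 2 fell (34% and 33.3% of all genes). DTC and untreated WT did not overlap for any of the 8 (groups did not overlap for 68.9% of all genes). ITGB7, among the 6 that rose, passed the filter on low counts only through DTC, where it was higher. ITGB3, the beta3 subunit of the vitronectin receptor alphaV beta3, rose the most. It had 6.63, 6.31 and 5.51 CPM in untreated WT, 63, 43.1 and 44.8 CPM in DTC and 57.2, 40.3 and 18.5 CPM in DTEC. The treated libraries were all above the untreated ones, and the DTEC libraries spread over a wide range. The log2 fold change was 3.03 in DTC (SE 0.33, edgeR adjusted p = 4.68e-06) and 2.65 in DTEC (SE 0.327, edgeR adjusted p = 2.92e-05), and DTEC and DTC were not called different, except without DTEC replicate 1 (-0.80, edgeR adjusted p = 0.0224).

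ITGB6 (chr2:160099666-160200313, minus strand, GRCh38), the epithelial partner of alphaV, had 73.9, 65.2 and 74.5 CPM in untreated WT, 295, 242 and 280 CPM in DTC and 131, 117 and 104 CPM in DTEC. Its DTEC libraries lay between the other groups without touching either. It rose by 1.94 at 7 days (SE 0.112, edgeR adjusted p = 3.26e-09) and was 1.22 lower in DTEC than in DTC (log2 fold change -1.22, SE 0.11, edgeR adjusted p = 5.96e-07). ITGB8, the other alphaV partner known for TGF-beta release, had 13.3, 10.4 and 12.3 CPM in untreated WT, 65, 38.1 and 37.2 CPM in DTC and 21, 23.6 and 20 CPM in DTEC. It was higher by 1.96 in DTC (SE 0.198, edgeR adjusted p = 8.85e-07) and by 0.84 in DTEC (SE 0.196, edgeR adjusted p = 0.00251), again with DTEC between the other groups.

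ITGB5 (chr3:124761948-124901418, minus strand, GRCh38), a further alphaV partner and vitronectin receptor subunit, fell at 7 days where ITGB6 rose. It had 255, 273 and 268 CPM in untreated WT, 105, 71.6 and 82.5 CPM in DTC and 355, 367 and 361 CPM in DTEC. It fell by 1.62 at 7 days (log2 fold change -1.62, SE 0.122, edgeR adjusted p = 3.95e-08) and stood above untreated WT by 0.44 at 28 days (SE 0.119, edgeR adjusted p = 0.00629). ITGB4, the hemidesmosome partner of alpha6, showed the same order. It had 111, 155 and 144 CPM in untreated WT, 81.8, 79.3 and 84.9 CPM in DTC and 157, 214 and 271 CPM in DTEC. Its change was -0.74 at 7 days (SE 0.165, edgeR adjusted p = 0.00121), no longer called with total counts alone (edgeR adjusted p = 0.0558), and 0.65 at 28 days (SE 0.164, edgeR adjusted p = 0.0042). From DTC to DTEC, ITGB5 rose by 2.06 (SE 0.124, edgeR adjusted p = 1.18e-08) and ITGB4 by 1.38 (SE 0.166, edgeR adjusted p = 9.33e-06).

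ITGB1, the common partner of most alpha subunits, changed less. It had 861, 758 and 785 CPM in untreated WT and 1361, 931 and 1107 CPM in DTC, a rise of 0.50 (SE 0.14, edgeR adjusted p = 0.00581). In DTEC it had 877, 769 and 635 CPM, a range around the untreated one, and the difference from untreated WT of -0.08 did not pass the test (SE 0.14, edgeR adjusted p = 0.673). That small difference turned positive with total counts alone (0.09), with upper-quartile scaling (0.04) and without DTEC replicate 3 (0.03). ITGB2, the beta2 subunit of leukocyte integrins, had 5.08, 5.7 and 5.77 CPM in untreated WT, 33.3, 25.6 and 34.8 CPM in DTC and 13.6, 16 and 19.3 CPM in DTEC. It rose by 2.501 in DTC (SE 0.163, edgeR adjusted p = 9.27e-09) and was 1.57 above untreated WT in DTEC (SE 0.161, edgeR adjusted p = 2.4e-06). Of the leukocyte markers, CSF1R had 0.627, 0.236 and 0.288 CPM in untreated WT and 10.7, 7.74 and 10.2 CPM in DTC, CD14 went from 0.173 to 0.738 CPM in the means and LAPTM5 from 52.2 to 29.4 CPM. The pan-leukocyte gene PTPRC did not exceed 0.147 CPM in any library, and CD2, CD3E and MS4A1 were at the floor. The part of these markers in the rise of ITGB2 was not tested. ITGB7 was also higher in DTC, at 1.17 ± 0.346 CPM against 0.211 ± 0.0668 CPM in untreated WT (SD, n = 3).

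**Figure D1:**
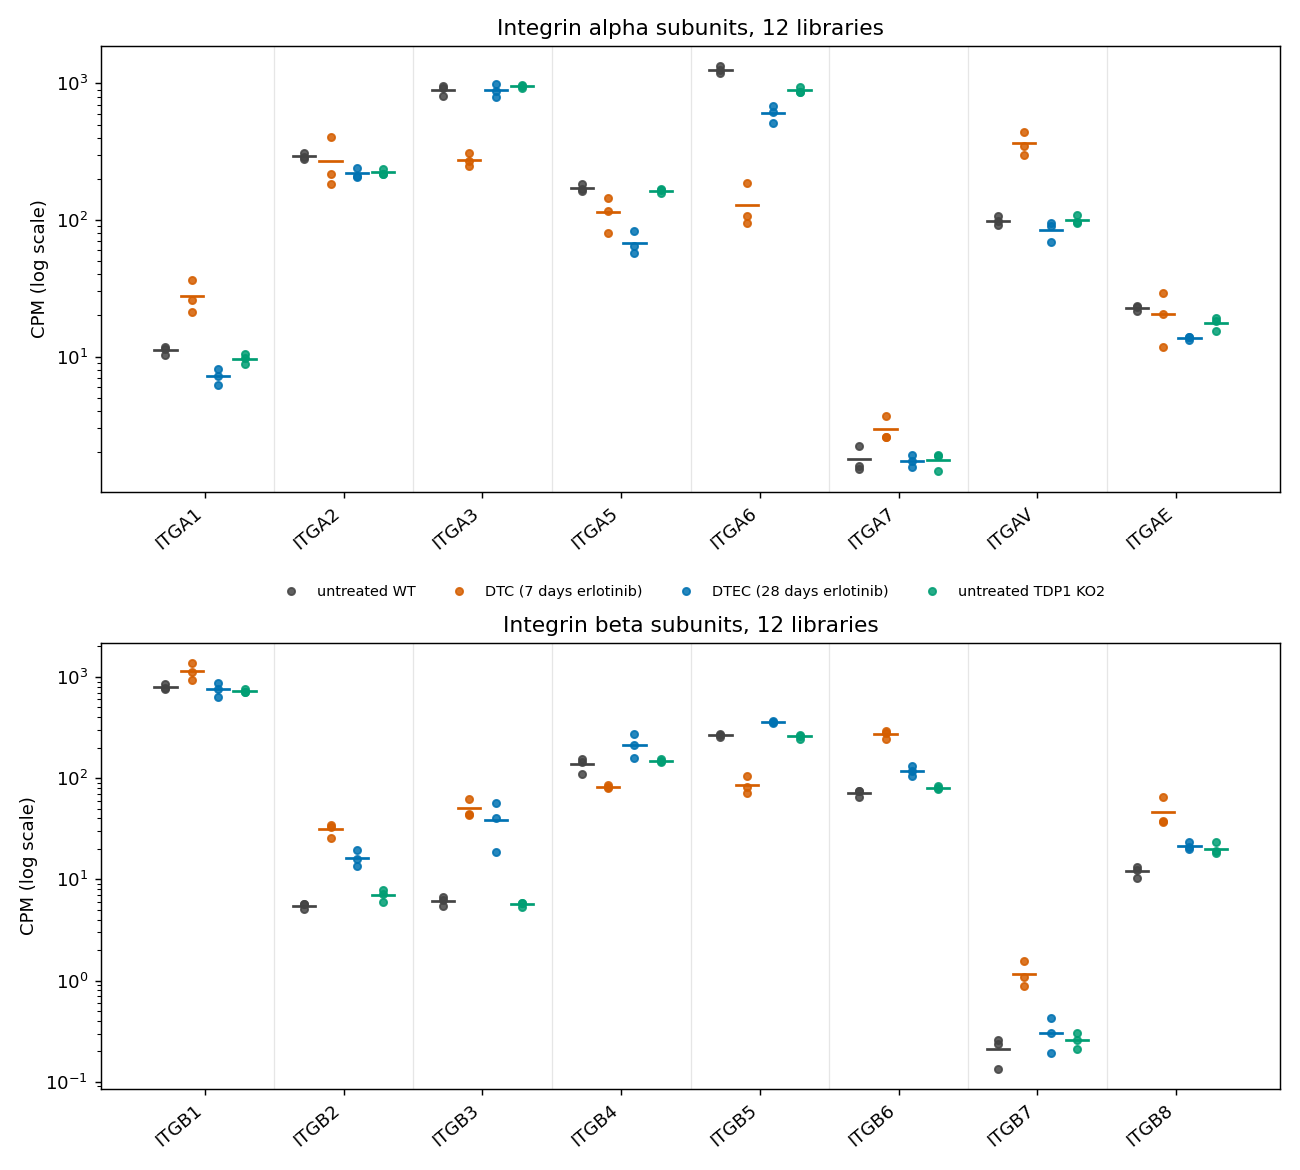
Normalised read counts (CPM, log axis) of integrin subunits in the 12 libraries, by group; each point is 1 library and the bar is the group mean. ITGA6, ITGA3 and ITGB5 are lowest in DTC, while ITGAV, ITGB6 and ITGB8 are highest there, and the 3 DTEC points of ITGB3 spread from 18.5 to 57.2 CPM.

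Subunits can be set against each other once counts are divided by exon length, here as CPM per kilobase of all exons in GENCODE 29. Each subunit's share of the summed alpha or beta level within a library does not depend on how libraries are scaled, and the shares are given as a description. ITGA6 made up 53.4% ± 3.04 (SD, n = 3) of the alpha level in untreated WT, 13.3% ± 1.63 in DTC and 39.7% ± 4.56 in DTEC. ITGAV made up 3.35% ± 0.237, 30.6% ± 1.83 and 4.41% ± 0.625 in the same order. By this measure the leading alpha subunit was ITGA6 in untreated WT and ITGAV in DTC, while in DTEC ITGA6 and ITGA3 (39.02% ± 5.49) did not differ beyond their spread. The lengths count all annotated exons of a gene, whichever transcripts were present, and the order of subunits depends on them. Lengths of the transcripts present were not used, so the order could differ with them. ITGA2, a collagen receptor subunit, took 22.6% ± 3.99 of the alpha level in DTC, against 10.3% ± 0.485 in untreated WT, although its own CPM was not called different.

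On the beta side ITGB1 led in every group by the same measure, with 62.6% ± 2.72 in untreated WT, 64.5% ± 1.65 in DTC and 50.02% ± 4.43 in DTEC. The second place was held by ITGB5 in untreated WT (19.4% ± 1.13) and in DTEC (22.3% ± 1.81), and by ITGB6 in DTC (20.1% ± 1.43). ITGB5 itself was at 4.59% ± 0.178 in DTC, near ITGB4 (4.23% ± 0.630) and ITGB3 (3.91% ± 0.334). The summed alpha level was 360 ± 4.08 CPM per kilobase in untreated WT and 146 ± 37.3, 234 ± 7.17 and 299 ± 5.29 CPM per kilobase in DTC, DTEC and KO. The summed beta level was 213 ± 4.96, 292 ± 48.1, 252 ± 18.2 and 203 ± 2.56 CPM per kilobase over the same groups. With these exon lengths, the alpha sum exceeded the beta sum in untreated WT, and in DTC the beta sum exceeded the alpha sum in the means.

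**Figure D2:**
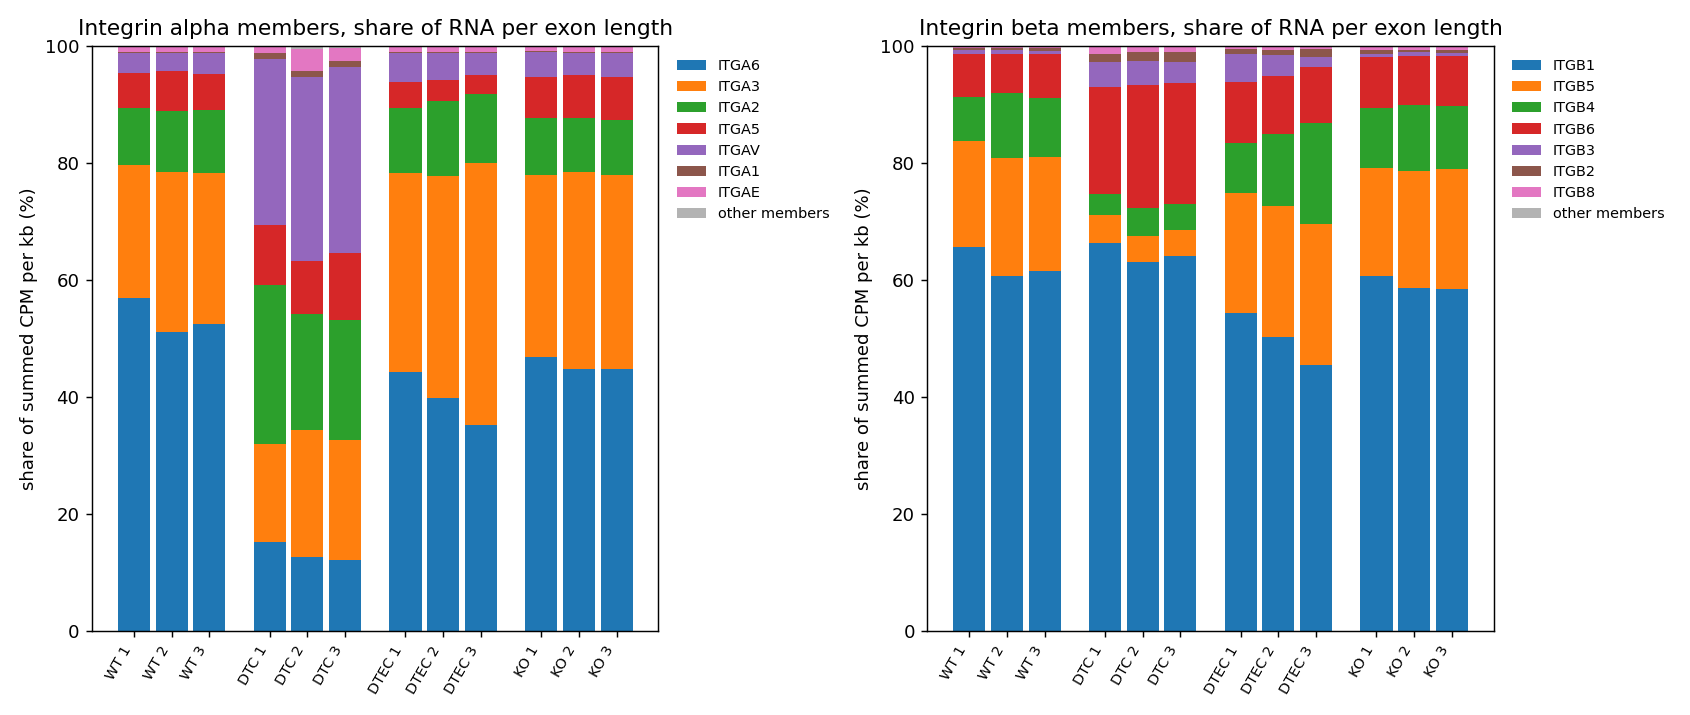
Share of each integrin subunit in the summed alpha level and in the summed beta level (percent of CPM per kilobase), as 1 stacked bar for each of the 12 libraries; other members are in grey. ITGA6 goes from 53.4% in untreated WT to 13.3% in DTC in the group means while ITGAV goes from 3.35% to 30.6%, and ITGB1 is the largest beta share in all 4 groups.

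Among the 9 genes that activate integrins or tie them to actin, 3 rose and 3 fell in DTC, a share of 66.7% against 67.3% of all genes. TNS1, among the 3 that rose, lay below the filter's minimum in untreated WT and was tested through groups where it was higher. FERMT1, the epithelial kindlin that binds the beta tail, had 167, 177 and 176 CPM in untreated WT, 53.7, 32.7 and 32.9 CPM in DTC and 84.9, 89.2 and 86.7 CPM in DTEC. The groups did not overlap, and DTEC stood between the others. The log2 fold change was -2.13 in DTC (SE 0.157, edgeR adjusted p = 3.05e-08) and -0.998 in DTEC (SE 0.151, edgeR adjusted p = 7.97e-05). FERMT2, the more widely expressed kindlin, had 21.6, 18.7 and 18.7 CPM in untreated WT and 38.8, 31.7 and 32.3 CPM in DTC. It rose by 0.80 (SE 0.133, edgeR adjusted p = 9.83e-05), and with 18.4, 17.3 and 13 CPM in DTEC it lay 1.08 below DTC (log2 fold change -1.08, SE 0.135, edgeR adjusted p = 1.28e-05). Both kindlins thus changed at 7 days, in opposite directions.

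The tensins, which bind beta tails and actin, also split. TNS4, an epithelial tensin without the actin-binding part, had 47.7, 55.5 and 54.6 CPM in untreated WT, 13.3, 12.2 and 12.4 CPM in DTC and 25.2, 28.3 and 33.7 CPM in DTEC. It fell by 2.06 at 7 days (log2 fold change -2.06, SE 0.118, edgeR adjusted p = 3.04e-09) and was still lower at 28 days, by -0.85 (SE 0.113, edgeR adjusted p = 2.38e-05). TNS3 had 261, 297 and 284 CPM in untreated WT, 405, 319 and 346 CPM in DTC and 493, 489 and 487 CPM in DTEC. Its DTEC libraries were the highest and nearly equal, 0.80 above untreated WT (SE 0.1, edgeR adjusted p = 1.4e-05). TNS1 was called higher in both treated groups but stayed at 1.87 CPM or less in every library, and below the filter's minimum in untreated WT.

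Talins and vinculin form the core of the link between integrins and actin. TLN1, the main talin, had 211, 245 and 231 CPM in untreated WT, 243, 156 and 167 CPM in DTC and 191, 210 and 215 CPM in DTEC. The untreated and DTC ranges overlapped, and the difference of -0.28 was not called (SE 0.14, edgeR adjusted p = 0.0887), although without DTC replicate 1 it was -0.47 and called (edgeR adjusted p = 0.000182). It also turned to 0.07 when libraries were scaled by total counts alone. VCL, vinculin, had 269, 279 and 290 CPM in untreated WT and 471, 263 and 299 CPM in DTC, and its difference of 0.30 was not called (SE 0.167, edgeR adjusted p = 0.124). Without DTC replicate 2 it was 0.52 and called (edgeR adjusted p = 0.00743), as it was with total counts alone (0.66, edgeR adjusted p = 0.00307).

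TLN2, the second talin, fell in DTEC to 13.4, 16.8 and 14.3 CPM from 27.2, 27 and 27.9 CPM in untreated WT (log2 fold change -0.88, SE 0.131, edgeR adjusted p = 6.46e-05). In DTC it was also called lower, a call lost with total counts alone. FLNA, the actin cross-linker filamin A, had 809, 1199 and 1124 CPM in untreated WT and 539, 672 and 688 CPM in DTEC, a fall of 0.72 (log2 fold change -0.72, SE 0.14, edgeR adjusted p = 0.000612). Untreated WT replicate 1 was the lowest of its group for FLNA, yet above every DTEC library. In DTC, FLNA was not called, but was lower and called without that untreated library (-0.45, edgeR adjusted p = 0.00972).

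In the complex of ILK, the PINCH protein LIMS1 and the parvins, the member with a large change was PARVB. This parvin had 66.3, 66.9 and 63.2 CPM in untreated WT, 17.1, 18.4 and 17.7 CPM in DTC and 22.9, 23.5 and 27.7 CPM in DTEC. The replicates lay close together in each group, and both treated groups were far below untreated WT. DTC and DTEC were nearer to each other, without overlap, and DTEC was called higher than DTC. The log2 fold change was -1.88 in DTC (SE 0.0963, edgeR adjusted p = 1.01e-09) and -1.40 in DTEC (SE 0.0946, edgeR adjusted p = 5.67e-08). PARVA, the other parvin measured, went from 55.1 ± 1.67 to 77.7 ± 18.2 CPM (SD, n = 3) in DTC and was called higher. ILK, the scaffold of the complex, had 51.6, 48.2 and 49.5 CPM in untreated WT and 57.5, 76.6 and 70.8 CPM in DTC. It rose by 0.46 (SE 0.109, edgeR adjusted p = 0.00196) and with 49.2, 49.6 and 56.8 CPM in DTEC was again within the untreated range or just above it (0.06, SE 0.109, edgeR adjusted p = 0.672). LIMS1 was not called in DTC, with 80.2, 50.8 and 57.5 CPM around the 62.8, 66.3 and 72.1 CPM of untreated WT, but without DTC replicate 1 it was called lower (-0.27, edgeR adjusted p = 0.0340).

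Of the 5 kinases and scaffolds, 2 rose and 2 fell in DTC (67.3% of all genes were called). PTK2, which encodes FAK, had 210, 195 and 203 CPM in untreated WT, 146, 118 and 123 CPM in DTC and 273, 244 and 222 CPM in DTEC. DTC lay wholly below and DTEC wholly above untreated WT, with changes of -0.65 (SE 0.105, edgeR adjusted p = 7.53e-05) and 0.28 (SE 0.104, edgeR adjusted p = 0.0363). The second of these was a weak call: it was lost when any 1 of untreated WT replicates 1, 2 or 3 or of DTEC replicates 1 or 2 was left out (edgeR adjusted p = 0.0507 to 0.134) and without the count filter (edgeR adjusted p = 0.102). SRC, the partner kinase of FAK, rose stepwise instead. It had 19.4, 22.2 and 19 CPM in untreated WT, 37.7, 29.2 and 33.3 CPM in DTC and 52.7, 45.7 and 43.9 CPM in DTEC. The differences were 0.72 at 7 days (SE 0.117, edgeR adjusted p = 7.72e-05), 1.23 at 28 days (SE 0.118, edgeR adjusted p = 1.21e-06) and 0.51 between DTEC and DTC (SE 0.116, edgeR adjusted p = 0.00197).

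PXN, paxillin, the scaffold that FAK and Src phosphorylate, was lower in both treated groups. It had 225, 246 and 243 CPM in untreated WT, 140, 116 and 122 CPM in DTC and 150, 166 and 182 CPM in DTEC, and both treated groups lay below every untreated library. The log2 fold change was -0.92 in DTC (SE 0.102, edgeR adjusted p = 2.02e-06) and -0.52 in DTEC (SE 0.102, edgeR adjusted p = 0.000647). BCAR1, the Src substrate p130Cas, had 78.3, 150 and 132 CPM in untreated WT, 50.5, 90.1 and 92.9 CPM in DTC and 36, 41.2 and 60.7 CPM in DTEC. It was not called in DTC, except without untreated WT replicate 1 (-0.83, edgeR adjusted p = 0.00992), and was lower by -1.38 in DTEC (SE 0.276, edgeR adjusted p = 0.00114). ZYX, zyxin, a plaque protein that responds to tension, had 263, 317 and 305 CPM in untreated WT, 348, 361 and 401 CPM in DTC and 191, 199 and 226 CPM in DTEC. It was above untreated WT at 7 days (0.33, SE 0.105, edgeR adjusted p = 0.0133), a call lost without untreated WT replicate 1 (0.28, edgeR adjusted p = 0.0555), and below it at 28 days (-0.52, SE 0.106, edgeR adjusted p = 0.000854).

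**Figure D3:**
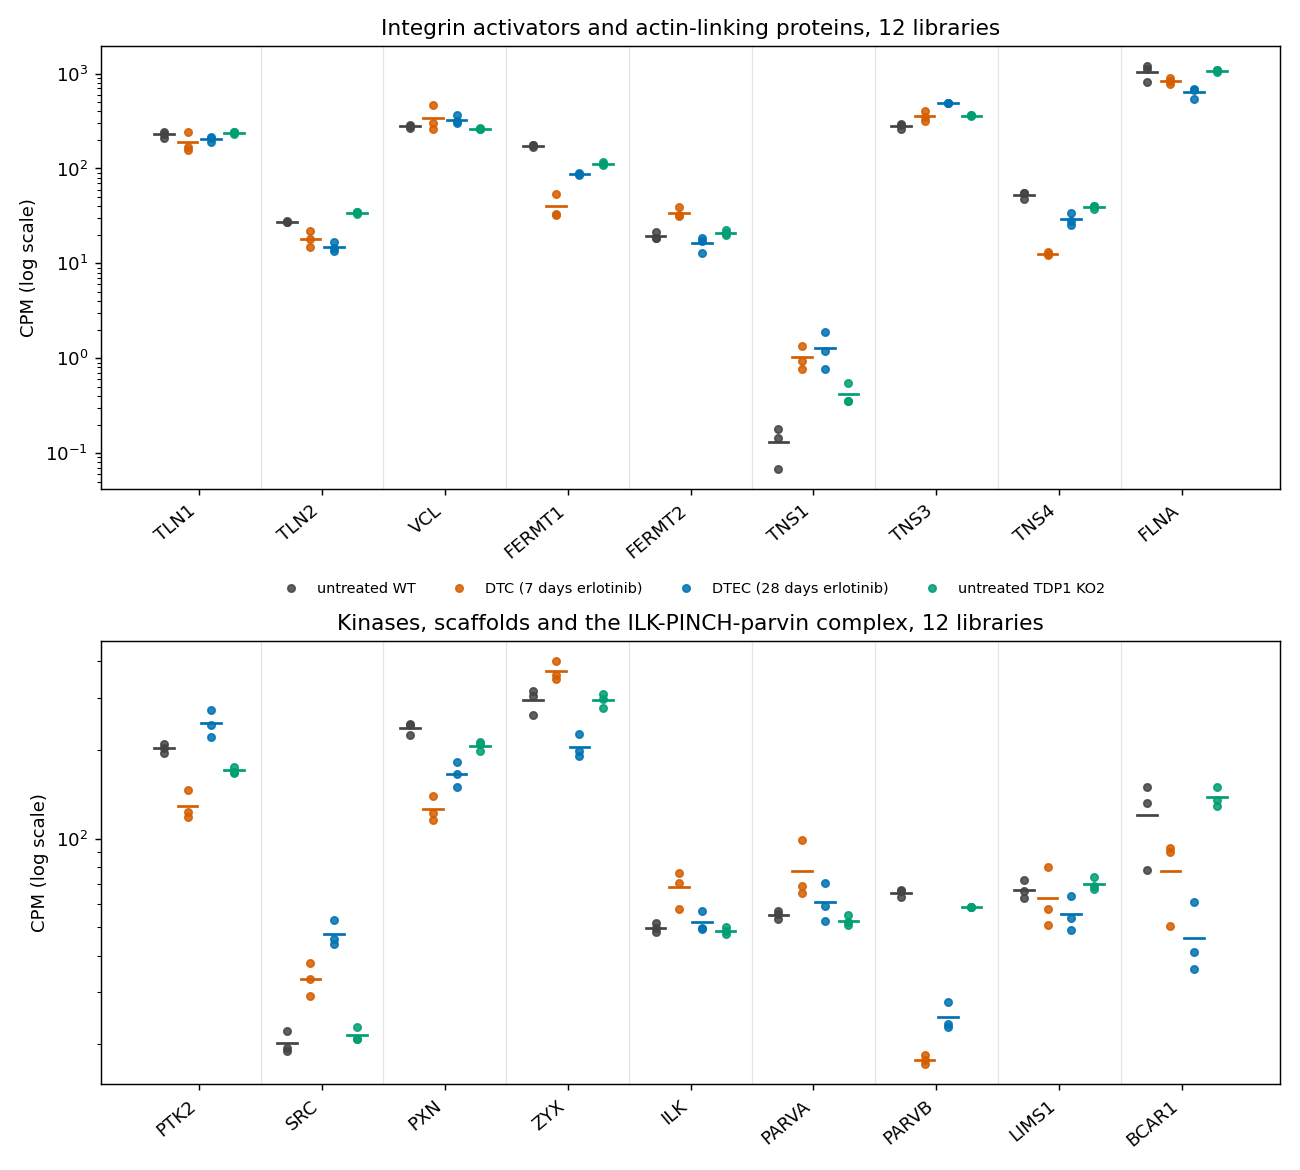
Normalised read counts (CPM, log axis) of focal adhesion plaque genes in the 12 libraries, by group; each point is 1 library and the bar is the group mean. FERMT1, TNS4 and PARVB are lowest in DTC, SRC is highest in DTEC, and TLN1 and VCL overlap between untreated WT and DTC.

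After 28 days in erlotinib ITGB3 and ITGB2 were higher and PARVB and BCAR1 lower than in untreated WT, each by more than 2-fold. The alpha subunits that passed the test (ITGA1, ITGA5, ITGA6 and ITGAE) were all lower, and the 6 called beta subunits were all higher. In all, 22 of 34 members were called, 10 higher and 12 lower, against 52.3% of all genes tested (26% higher and 26.3% lower). With a change of at least 2-fold, 4 rose and 4 fell, 8 in all, against 13.2%, 6.7% and 19.9% of all genes, and the median log2 fold change was -0.12 over the members and 0.02 over all genes. The libraries of DTEC and untreated WT did not overlap for 25 of 34 members (62.4% of all genes). Of the 32 members above the minimum in every group, 21 were called, 9 higher and 12 lower. At 2-fold, 3 of the 32 rose and 4 fell, and the median log2 fold change over the 32 was -0.19. Among all 34 tested members, the 4 higher by 2-fold or more were ITGB2, ITGB3, SRC and TNS1, and the 4 lower were ITGA5, ITGA6, PARVB and BCAR1.

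The direct comparison of DTEC with DTC called 26 of 34 members, 11 higher and 15 lower in DTEC, against 55.4% of all genes (28.8% higher and 26.6% lower). With a change of at least 2-fold, 6 rose and 6 fell, 12 in all, against 8.1%, 14.3% and 22.4% of all genes. Of the 32 members above the minimum in every group, 6 rose and 5 fell by at least 2-fold. The libraries of DTEC and DTC did not overlap for 23 of 34 members (56.6% of all genes). The 6 higher ones were ITGA6, ITGB5, ITGA3, ITGB4, TNS4 and FERMT1, all of which were lower in DTC than in untreated WT. The median log2 fold change was -0.32 over the members and -0.01 over all genes. TNS4 was higher in DTEC by 1.20 (SE 0.117, edgeR adjusted p = 1.15e-06), FERMT1 by 1.13 (SE 0.153, edgeR adjusted p = 2.72e-05) and PTK2 by 0.93 (SE 0.105, edgeR adjusted p = 5.15e-06). ITGA1 was lower by -1.95 (SE 0.177, edgeR adjusted p = 6.19e-07), ITGB8 by -1.12 (SE 0.192, edgeR adjusted p = 0.000224), ITGB2 by -0.94 (SE 0.152, edgeR adjusted p = 0.000131), ZYX by -0.85 (SE 0.106, edgeR adjusted p = 1.29e-05) and ITGB1 by -0.58 (SE 0.14, edgeR adjusted p = 0.00313). ILK was also lower (-0.40, SE 0.109, edgeR adjusted p = 0.0068), and PXN was higher by 0.40 (SE 0.102, edgeR adjusted p = 0.00432), a call lost with total counts alone (edgeR adjusted p = 0.0937), with upper-quartile scaling (0.0614) and with the compared libraries alone (0.0641). TLN1 (0.12, SE 0.14, edgeR adjusted p = 0.476) and VCL (-0.07, SE 0.167, edgeR adjusted p = 0.74) were not called, but without DTC replicate 1 TLN1 was called higher (0.33, edgeR adjusted p = 0.00384). Among the members with small differences here, the calls of ITGAE (lost without DTC replicate 2 or 3 or any of the 3 DTEC replicates), BCAR1 (lost without DTC replicate 2 or 3 or DTEC replicate 1 or 2) and FLNA (lost without DTEC replicate 1) depended on which libraries were kept. Calls of lower levels in DTEC were gained for PARVA (without DTC replicate 2 or 3 or DTEC replicate 1), TLN2 (without DTC replicate 2 or DTEC replicate 2) and ITGA2 (without DTC replicate 2). Scaling by total counts shifted the median log2 fold change of all genes by 0.35 in DTC against untreated WT, by 0.17 in DTEC against untreated WT and by -0.19 between DTEC and DTC. Under each of the 3 other scalings, 0 of the called members changed sign in these comparisons.

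**Figure D4:**
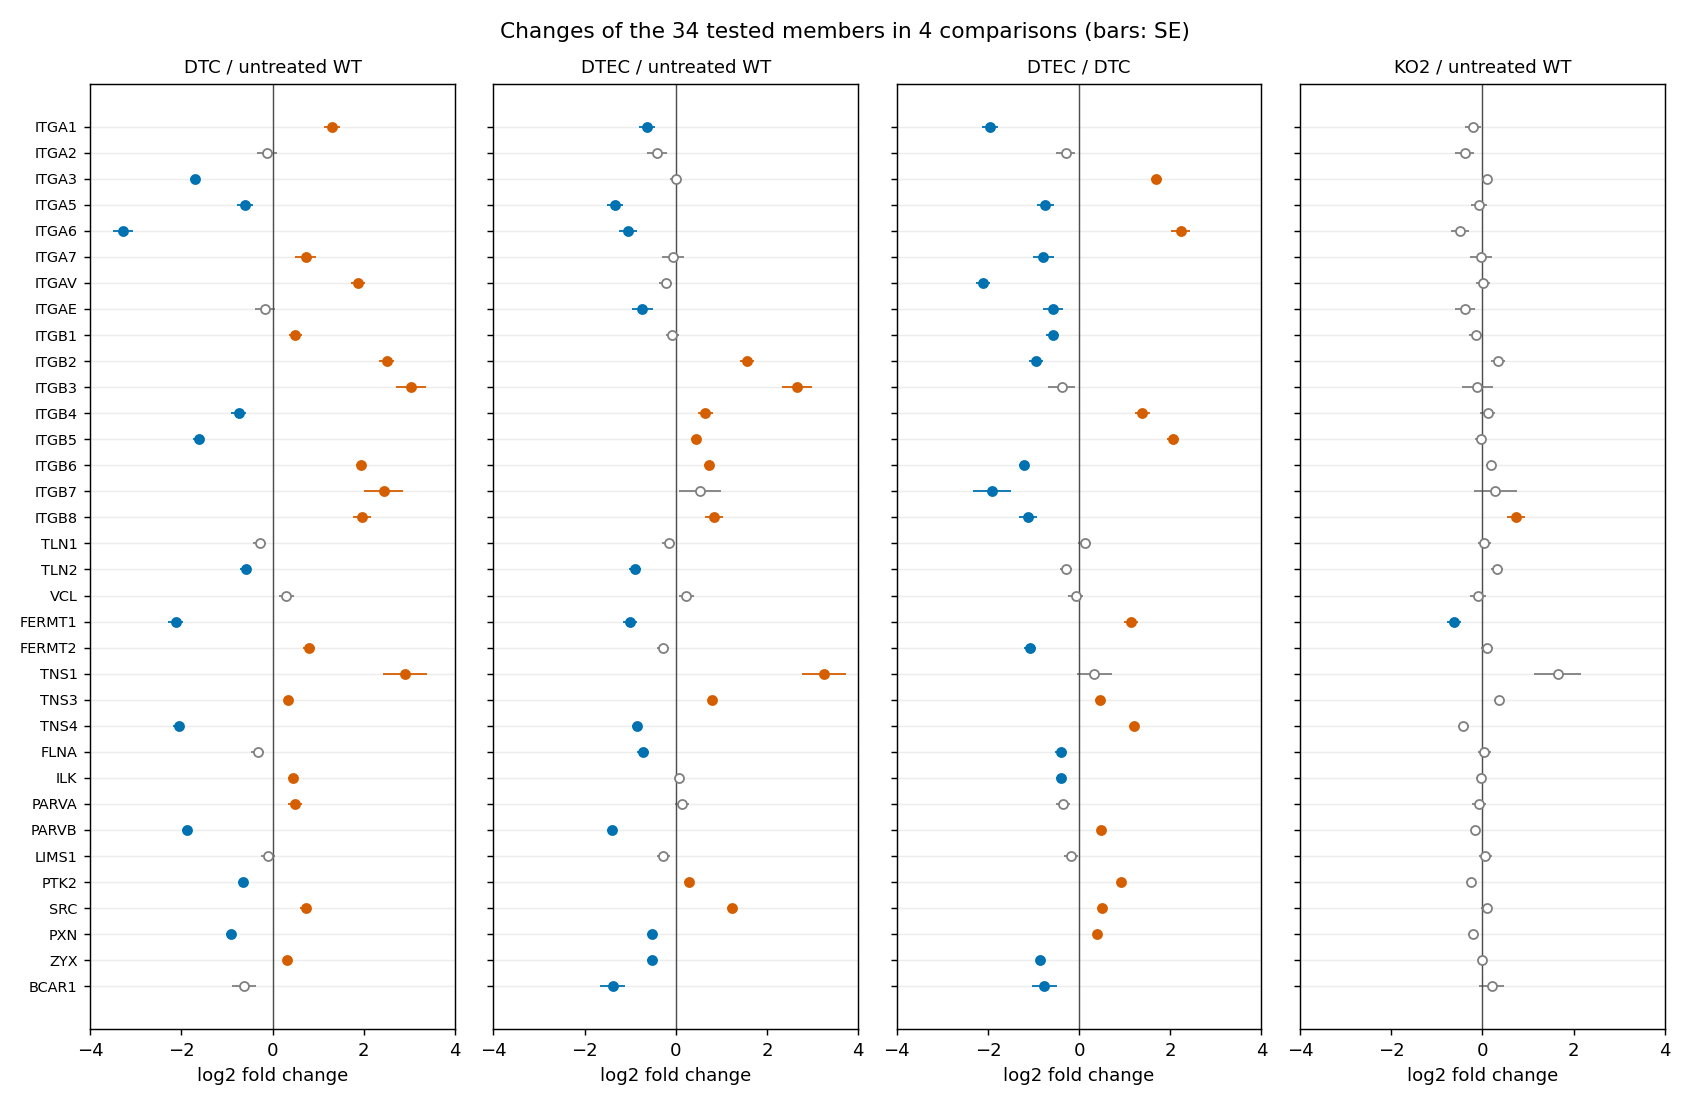
Log2 fold changes of the 34 tested members from edgeR in 4 panels: DTC, DTEC and KO against untreated WT, and DTEC against DTC; bars are ± 1 SE and filled points passed the test. The DTC panel holds large changes in both directions (ITGA6 at -3.28 and ITGB3 at 3.03 in DTC), whereas in the KO panel FERMT1 and ITGB8 are the filled points.

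In the untreated TDP1 knockout line, 2 of 34 members were called, 1 higher and 1 lower, against 4.31% of all genes tested (2.76% higher and 1.55% lower). With a change of at least 2-fold the edgeR count was 0, against 1.3% of all genes (0.964% higher and 0.339% lower). At an unadjusted p under 0.05 in edgeR, 8 members passed, and the share of all genes at that threshold was not counted. The 1 of these at 2-fold was TNS1, which lay below the minimum of the filter on low counts in untreated WT. DESeq2 called 4 members and 1149 of all genes. FERMT1 had 116, 110 and 110 CPM in KO against 167, 177 and 176 CPM in untreated WT, a log2 fold change of -0.63 (SE 0.15, edgeR adjusted p = 0.0287). ITGB8 had 23.3, 18.9 and 18.2 CPM in KO against 13.3, 10.4 and 12.3 CPM, a rise of 0.75 (SE 0.196, edgeR adjusted p = 0.0473). Neither pair of groups overlapped, but both calls were lost whichever single library was left out (edgeR adjusted p = 0.104 to 0.148 for FERMT1 and 0.0811 to 0.169 for ITGB8). ITGA6 had 934, 869 and 863 CPM in KO, below every untreated WT library, and its difference of -0.50 was not called in the main fit of all 12 libraries (SE 0.197, edgeR adjusted p = 0.207). Without the count filter, the fit of all 12 libraries did call it (-0.47, edgeR adjusted p = 0.0206). In a fit of the 6 compared libraries alone, 12 members were called, 5 higher and 7 lower, among them ITGA6 (-0.47, edgeR adjusted p = 0.000134). That fit called 2656 of 15183 genes (17.5%). The groups did not overlap for 16 of 34 members (35.7% of all genes). The comparisons of DTC, DTEC and KO all use the same untreated WT libraries.

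The other core members were not called in KO in the fit of all 12 libraries. ITGB1 stood at 752, 708 and 712 CPM (-0.15, SE 0.14, edgeR adjusted p = 0.659) and PTK2 at 175, 169 and 167 CPM (-0.25, SE 0.104, edgeR adjusted p = 0.232). For ITGAV (0.01), ITGB4 (0.12), SRC (0.09), TLN1 (0.04), ILK (-0.04), VCL (-0.09) and PXN (-0.21), the edgeR adjusted p lay between 0.329 and 0.981. In the fit of the 6 compared libraries alone, PTK2 (-0.23, edgeR adjusted p = 0.00885) and PXN (-0.18, edgeR adjusted p = 0.0417) were called lower.

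Other genes of the pathway were counted from lists written from general knowledge. Of 22 tested integrin ligands (24 listed), 12 rose and 2 fell in DTC, with a median log2 fold change of 0.98 (0.06 over all genes), and in DTEC 8 rose and 7 fell. The 14 called in DTC are 63.6% of those tested, against 67.3% of all genes, and the 15 called in DTEC are 68.2%, against 52.3%. Between DTEC and DTC, 1 was higher and 16 lower, 77.3% against 55.4% of all genes. FN1, fibronectin, the ligand of alpha5 beta1 and of alphaV integrins, had 88.6, 97.9 and 99.4 CPM in untreated WT and a mean of 8868 ± 3744 CPM in DTC and 862 CPM in DTEC. Its log2 fold change was 6.54 in DTC (edgeR adjusted p = 2.41e-10) and 3.18 in DTEC (edgeR adjusted p = 1.17e-07). VTN, vitronectin, went from 0.103 CPM in untreated WT to 52.9, 46.1 and 63.7 CPM in DTC and 3.2, 1.99 and 2.17 CPM in DTEC. VCAM1, the ligand of alpha4 integrins, had 0 counts in untreated WT and 5.34, 5.24 and 5.98 CPM in DTC, at least 59.7-fold higher against a floor of 3 counts per library. The alpha4 subunit itself, ITGA4, had at most 1 count in any library. VTN, VCAM1 and CCN2, which are among the 12 ligands that rose in DTC, lay below the minimum of the filter on low counts in untreated WT. They were tested through groups where they were higher. In KO, 3 ligands were higher, VTN, ICAM1 and COL1A1, and 0 lower, 13.6% against 4.31% of all genes.

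Of 39 tested further focal adhesion genes (40 listed), 12 rose and 12 fell in DTC, with a median log2 fold change of -0.15, and 10 rose and 13 fell in DTEC. These are 61.5% of the list in DTC, against 67.3% of all genes, and 59.0% in DTEC, against 52.3%. The largest changes in DTC were those of 2 genes low in untreated WT. LIMS2 went from a mean of 0.0947 to 2.85 CPM (log2 fold change 4.89, edgeR adjusted p = 2.76e-06). TGFB1I1 went from 0.661 to 8.70 CPM (3.72, edgeR adjusted p = 1.29e-08). NEDD9, a Cas-family scaffold related to BCAR1, had 19.1, 21.6 and 20.1 CPM in untreated WT, 223, 174 and 194 CPM in DTC and 135, 114 and 95.7 CPM in DTEC. Its log2 fold change was 3.28 in DTC (edgeR adjusted p = 2.34e-10) and 2.51 in DTEC (edgeR adjusted p = 7.81e-09), while BCAR1 was lower in DTEC. CSRP1, a LIM protein of actin bundles, had 3.58, 3.44 and 2.83 CPM in untreated WT and 21.8, 23.2 and 23.5 CPM in DTC, and 0.456, 0.324 and 0.387 CPM in KO. It rose by 2.80 in DTC (edgeR adjusted p = 3.03e-10) and fell by 3.07 in KO (edgeR adjusted p = 2.42e-07). FLNC, the muscle filamin, was lower in KO as well, at 0.667, 0.647 and 0.636 CPM against 3.61, 5.13 and 4.82 CPM (log2 fold change -2.79, edgeR adjusted p = 4.68e-06). These 2 genes are the ones of this list that fell in KO, and NEDD9 is the 1 that rose (0.99, edgeR adjusted p = 0.000705).

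Among the 6 hemidesmosome genes that work with alpha6 beta4, 3 rose and 2 fell in DTC (34% and 33.3% of all genes). COL17A1, the collagen of hemidesmosomes, went from 3.49, 3.47 and 3.2 CPM to 40.8, 26.4 and 31.9 CPM in DTC (log2 fold change 3.28, edgeR adjusted p = 1.9e-07), opposite in direction to ITGA6. KRT5, a basal keratin, had 150, 151 and 143 CPM in untreated WT, 86.4, 56.7 and 66.4 CPM in DTC and 34.1, 27.1 and 24.7 CPM in DTEC. It fell by 1.08 in DTC (edgeR adjusted p = 1.17e-05) and by 2.37 in DTEC (edgeR adjusted p = 3.52e-08). Of the leukocyte and platelet alpha subunits, which lie outside the 39 members, 3 of 5 were tested. ITGAM and ITGAX, partners of beta2, rose in DTC with ITGB2, to 10.8, 10.4 and 9.88 CPM from 1.05, 1.75 and 1.1 CPM for ITGAM and to 2.23, 2.71 and 1.99 CPM from 0.149, 0.135 and 0.115 CPM for ITGAX. Their log2 fold changes were 3.00 (edgeR adjusted p = 2.43e-08) and 4.08 (edgeR adjusted p = 1.88e-06). ITGAX lay below the minimum of the filter on low counts in untreated WT, so it was tested through groups where it was higher. In DTEC, ITGAM had 1.28, 1.07 and 0.852 CPM, a range that overlapped untreated WT, while ITGB2 was still higher. ITGAX was also still higher in DTEC (2.03, edgeR adjusted p = 0.00277).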

How the data were processed

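Polyadenylated RNA of 12 PC9 libraries was sequenced as stranded read pairs, per the labels' protocols. The deposited values were expected counts, that is estimated reads per gene with decimals and no scaling to depth. The submitters' processing notes name RSEM 1.3.1, Bowtie2 2.5.2, DESeq2 1.40.2 and GRCh38, without roles; the annotation release is not given in the sources used here. Coordinates and exon lengths are those of GENCODE 29.

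Counts were rounded and fitted together in R 4.3.3 with edgeR 4.0.16 (filterByExpr by group, TMM, 1 mean per group, robust quasi-likelihood tests). P-values were adjusted by Benjamini-Hochberg over 17115 genes and called under 0.05. Totals of 25572691 to 38373679 set the counting floor of 3 counts per library; bounds from it cover counting error only. The script was tested on simulated data.

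The members and lists were chosen with earlier results of these data known. Fold changes and p-values are printed for up to 14 called members per comparison with the largest change and a mean of at least 1 CPM, for 10 core members (ITGB1, ITGAV, ITGA6, ITGB4, PTK2, SRC, TLN1, VCL, ILK, PXN), for members called in opposite directions at 7 and 28 days, and for up to 4 called members of each other list. Alternatives were 3 other scalings, DESeq2 1.42.0, no count filter, the compared libraries alone, robust estimation off, a replicate block and leaving out each library. Marker sums were compared by two-sided exact permutation tests, whose smallest p with 3 libraries against 3 is 0.1: 15 of 16 gave 0.1 (adjusted 0.107), and the epithelial sum in DTEC against untreated WT gave 0.5. RefSeq gave promoter windows for 28 members. Windows for ITGA3, PTK2, ITGA7, ITGB2, ITGB3, ITGB4, PARVA, TNS4, FERMT1, SRC and ITGA9 were not used here.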

Additional observations from a re-analysis of the deposited data

Results flagged for a closer look

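For 5 members the changes at 7 and 28 days against untreated WT were both called and had opposite signs, and the direct test of DTEC against DTC, which is the test of that difference, was called for each (edgeR). ITGB5 had a log2 fold change of -1.62 in DTC and 0.44 in DTEC, a difference of 2.06 (SE 0.124, edgeR adjusted p = 1.18e-08). ITGB4 had -0.74 and 0.65, a difference of 1.38 (SE 0.166, edgeR adjusted p = 9.33e-06). PTK2 had -0.65 and 0.28, a difference of 0.93 (SE 0.105, edgeR adjusted p = 5.15e-06). ITGA1 had 1.31 and -0.64, a difference of -1.95 (SE 0.177, edgeR adjusted p = 6.19e-07). ZYX had 0.33 and -0.52, a difference of -0.85 (SE 0.106, edgeR adjusted p = 1.29e-05). Without untreated WT replicate 1, 3 of the 5 were still called in opposite directions (ITGA1, ITGB4 and ITGB5), because the DTEC call of PTK2 and the DTC call of ZYX were then lost.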

How the results depend on the processing

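For DTC, DTEC and DTEC against DTC, the number of called members stayed within 1.5 times the reported count under every alternative run, and leaving out 1 library gave 27 to 30, 21 to 22 and 25 to 27 called members (all genes: 10867 to 12323, 7766 to 8585 and 8332 to 10610). The KO count of 2 members was less stable: 1 with relative log expression scaling and 4 with DESeq2. It was 3 with total counts alone, with upper-quartile scaling or without the count filter, and 12 with the 6 compared libraries alone. Whichever library was left out, edgeR called 0 members, and all genes called ran from 321 to 426. At an unadjusted p under 0.05, 5 to 6 members then passed, and the share of all genes was not counted. Of all genes, KO had 738 calls, 1149 with DESeq2, 1147 without the count filter and 2656 with the compared libraries alone. The 5 members called in opposite directions were 3 to 5 when 1 library was left out.

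Differences that changed sign were all uncalled as reported; the cause was not tested. With total counts alone, TLN1 became 0.0719 in DTC, 0.00924 in DTEC and -0.0627 between DTEC and DTC, ITGB1 became 0.0931 in DTEC and ILK 0.0333 in KO. With upper-quartile scaling, TLN1 became 0.00188 in DTC and -0.0456 between DTEC and DTC, and ITGB1 0.0381 in DTEC. Leaving out 1 library gave -0.172 to 0.0307 for ITGB1 (positive without DTEC replicate 3) and -0.0186 to 0.118 for ILK (negative without DTEC replicate 3) in DTEC. Between DTEC and DTC it gave -0.0385 (without DTC replicate 2) to 0.332 (without DTC replicate 1) for TLN1 and -0.275 (without DTC replicate 2) to 0.204 (without DTC replicate 1) for VCL. In KO it gave -0.0310 to 0.0975 for ITGAV (negative without untreated WT replicate 2, -0.0200, or KO replicate 1) and -0.0529 to 0.00757 for ILK (positive without KO replicate 3 or untreated WT replicate 1).

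Whether replicate numbers pair the samples was not settled, and the main fit used no pairing. Deviations of same-numbered libraries correlated weakly, at 0.179, 0.060 and 0.096 for DTC and untreated WT, and between -0.013 and 0.139 in the other comparisons. For KO and untreated WT, same-numbered libraries correlated at 0.063, 0.053 and 0.038, and all pairs with different numbers correlated negatively. In each of the other comparisons, not every library correlated best with its own number. With a replicate block, 28, 23, 26 and 3 members were called in DTC, DTEC, DTEC against DTC and KO (all genes: 11775, 9255, 9732 and 887), and 6 in opposite directions.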
